A study of Drosophila melanogaster with 20 samples.

Results

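The Turandot genes encode small secreted peptides that the fly fat body releases into the hemolymph under stress. All 7 genes named TotA, TotB, TotC, TotF, TotM, TotX and TotZ were taken by their exact symbols from the expression tables, where each symbol named 1 row, and they make 7 of the 13972 genes used. An eighth family gene of the current annotation, TotE, stood in the tables under its older symbol Victoria and is given beside them. Poly(A) RNA was sequenced from the fat body, which stores fat and secretes most hemolymph proteins, and from the brain of female wild-type Oregon-R flies. The 4 groups, of 5 libraries each, were fat body from flies on a high sugar diet (HSD), fat body from flies on normal food (ND), brain from HSD flies and brain from ND flies. Age was listed as 5 days and the time on food as 5 days for both diets, and all groups carry the same wild-type background. The labels state neither the sugar content, nor how many flies gave a library, nor whether the libraries of a group had separate origins. The p-values therefore describe variation among these libraries, part of which may be technical.

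Turandot peptides are known as slow, long-lasting markers of stress. Heat, infection, wounding and oxidants raise them, and cytokines of the Unpaired family act on the fat body through the receptor Domeless, the Janus kinase Hopscotch and the transcription factor Stat92E to switch them on. The kinase Mekk1 and the NF-kB factor Relish of the Imd pathway are further known inputs. TotA is the best studied member, and the family has been used mainly as a readout of stress and of Stat92E activity in the adult fat body. The genes lie on arms 3R and 2L. In order along 3R stand TotA, TotC, TotB and TotZ with no annotated gene between them, and TotX follows after 7 other annotated genes. TotM and TotF lie far apart on 2L, and TotF is next to TotE. This order is that of the Release 6 annotation and not of dm3, so no coordinates are given. The duplicated genes resemble each other, and reads that matched more than 1 of them were dropped because uniquely mapped reads were kept, so their levels are uncertain to that extent.

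Expression is given as RPKM, a read count scaled to both the exon length of the gene and the size of the library. The values step in whole reads, which gave a depth of 10.7 to 23.4 M reads for fat body HSD libraries and 5.6 to 40.4 M reads for fat body ND libraries. Brain libraries held 22.6 to 46.3 M reads on HSD and 21.7 to 37.7 M reads on ND. A count of 3 reads on an exon length of 1 kb corresponded to 0.128 to 0.28 RPKM in fat body HSD, 0.0742 to 0.536 in fat body ND, 0.0648 to 0.133 in brain HSD and 0.0797 to 0.138 in brain ND. Such floors cover counting error only. Genes seen with only 1 to 3 reads numbered 400 in library 4 of the HSD fat bodies and 321 and 95 in libraries 4 and 5 of the ND fat bodies, while the remaining fat body libraries had 1065 to 1221. Among brain libraries the main axis of variation (64.6% of the variance) ran between libraries 1 to 3 and libraries 4 and 5, whatever the diet. Diet differences are therefore also given within libraries 1 to 3 and within libraries 4 and 5, a division seen in the data and not stated in the labels. The fat body markers summed to 40806 to 91464 RPKM in fat body HSD and 67826 to 164471 RPKM in fat body ND libraries, while the neuron markers stayed at 2.64 to 20.9 RPKM and 6.38 to 12.7 RPKM there. The larval fat body genes Lsp1gamma, Fbp1 and Fbp2 were at or near 0 in the fat body, with group means of at most 0.282 RPKM. Oenocyte markers (10353 to 23408 RPKM on HSD and 7653 to 11929 RPKM on ND) and ovary markers (29.5 to 1600 RPKM on HSD and 296 to 12639 RPKM on ND) were also present in the fat body libraries.

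Only 4 members were expressed at a level that could be compared. TotA, TotC, TotM and TotX had reads in all 20 libraries, while TotB, TotF and TotZ stayed near 0 in all 4 groups. Expressed and nearly unread genes lie side by side on 3R, where TotA and TotC, the most abundant pair, are followed directly by TotB and TotZ. TotB had 6 reads over the 5 fat body HSD libraries and 3 over the 5 fat body ND libraries, with 1 read in brain HSD and 3 in brain ND. TotF had 0 reads in fat body HSD and 0 in fat body ND, which allows a level of up to 0.0849 and 0.0561 RPKM over each group, and it had 2 reads in brain HSD and 4 in brain ND. TotZ had 1 read in the whole series, in brain ND library 3. These 3 members were thus at or within a few reads of the detection limit in both tissues on either diet. TotE also had 0 reads in the fat body on either diet, and 4 reads in brain HSD and 3 in brain ND.

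**Figure D1:**
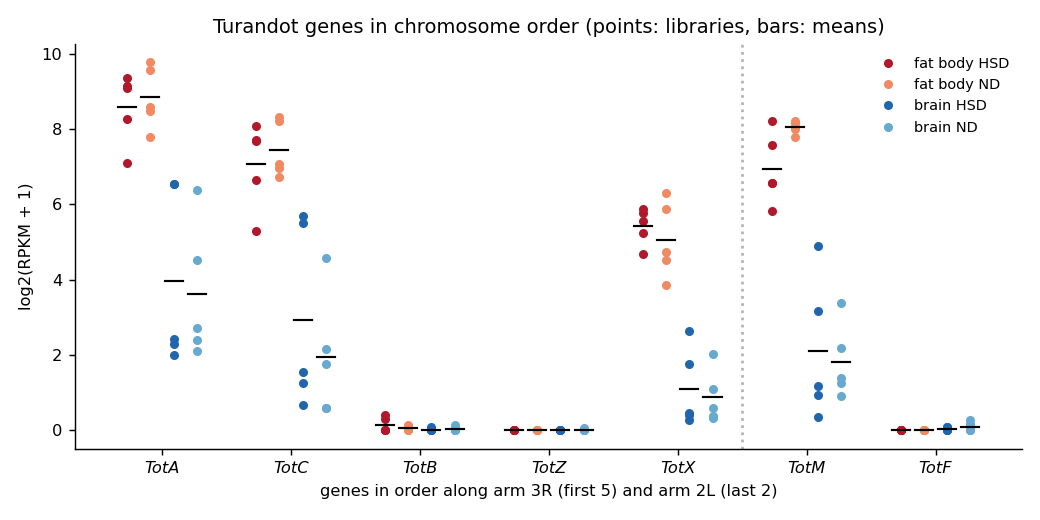
Each point is 1 library, the vertical axis is log2(RPKM + 1), bars are group means of 5 libraries and colours are the 4 groups; the 5 genes left of the dotted line stand in their order along arm 3R and the 2 genes right of it along arm 2L. TotA, TotC, TotX and TotM stand above the baseline, while TotB, TotZ and TotF lie at it in all groups.

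The fat body carried high levels of TotA, the best studied member, and lower levels of the other 3. TotA had 308, 135, 546, 654 and 567.7 RPKM in fat body HSD libraries 1 to 5, against 219, 359, 386, 874 and 754 RPKM in fat body ND libraries 1 to 5. TotC, its neighbour on 3R, had 99.9, 37.96, 272, 203 and 207 RPKM on HSD, against 105, 133, 124, 317 and 295 RPKM on ND. In both genes HSD library 2 was the lowest of the 10, ND libraries 4 and 5 were the highest, and the diets overlapped. TotM, the member on 2L, had 93.1, 55.7, 295, 93.5 and 190.5 RPKM on HSD, against 221, 295, 256, 265 and 287 RPKM on ND. TotX, at the far end of the 3R group, had 57.4, 24.6, 46.0, 53.5 and 36.5 RPKM on HSD, against 13.4, 21.9, 25.8, 58.3 and 77.8 RPKM on ND. For TotM, 4 of 5 HSD libraries lay below the lowest ND library and HSD library 3 reached the ND range. For TotX the diets overlapped, and the ND libraries spread wider than the HSD libraries.

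Ranked by level per exon length, the fat body HSD means were 442 ± 214 RPKM for TotA, 164 ± 93.7 for TotC, 146 ± 97.2 for TotM and 43.6 ± 13.3 for TotX (SD, n = 5). On ND the order was TotA at 518 ± 280, TotM at 265 ± 29.1, TotC at 195 ± 102 and TotX at 39.4 ± 27.4 RPKM (SD, n = 5). TotC and TotM, the neighbours in these orders, overlapped in range on both diets. TotX ranged below the other 3 on ND, while on HSD its highest value (57.4 RPKM) exceeded the lowest of TotC (37.96 RPKM) and of TotM (55.7 RPKM). TotA ranked between position 149 and 553 of 13972 genes in HSD fat bodies and between 130 and 335 in ND fat bodies, which places it among the abundant transcripts of the tissue.

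**Figure D2:**
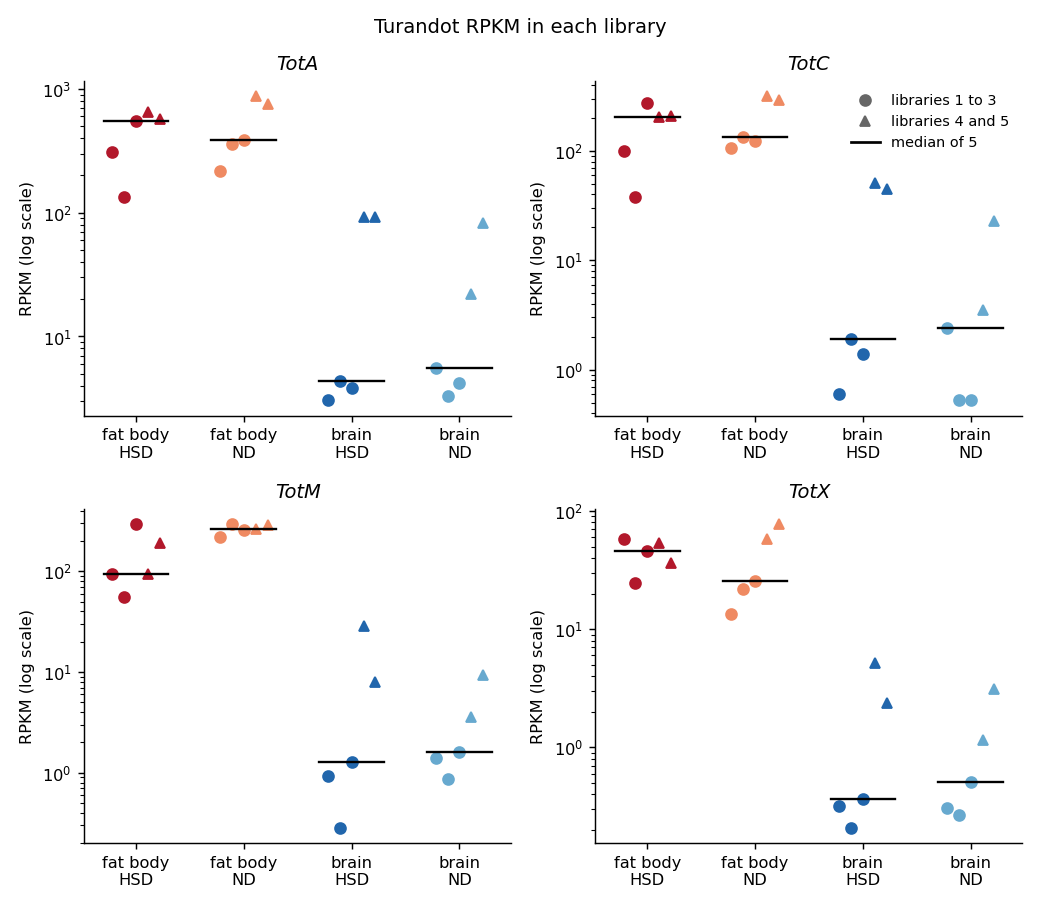
RPKM on a log axis for TotA, TotC, TotM and TotX, with 1 symbol per library (circles for libraries 1 to 3, triangles for libraries 4 and 5) and a bar at the median of the 5 libraries of a group. Fat body TotM on ND lies within 221 to 295 RPKM, while brain libraries 4 and 5 stand above brain libraries 1 to 3 in every panel.

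To determine whether high sugar changed the stress peptides of the fat body, HSD and ND libraries were compared with limma on log2(RPKM + 1) over 8223 genes with a mean of at least 1 RPKM, with Benjamini-Hochberg adjustment over all of them. No gene passed an adjusted p of 0.05 in either direction (0% higher and 0% lower), 785 had an unadjusted p under 0.05, and limma-voom on the recovered reads also called 0 genes (647 at an unadjusted p under 0.05). None of the 4 members tested passed. Their fold changes are on the log2(RPKM + 1) scale, which understates changes of low genes. TotM had the largest difference, -1.10 ± 0.36 (SE), a fold of 0.466 with a 95% interval of -1.89 to -0.31 on the log2 scale. Its unadjusted p was 0.0104, position 225 of 8223 by p, and its adjusted p in limma was 0.378, between 0.221 and 1 over 22 alternatives. TotM was lower than the ND mean in 4 of 5 HSD libraries, and its difference was -1.14 when libraries 1 to 3 were taken alone and -1.04 for libraries 4 and 5. The other members had intervals that spanned 0. TotA differed by -0.25 ± 0.46 and TotC by -0.38 ± 0.51, with intervals of -1.26 to 0.76 and -1.48 to 0.73. TotX differed by 0.36 ± 0.43, with an interval of -0.57 to 1.29. Adjusted p values in limma for TotA, TotC and TotX were 0.903, 0.85 and 0.824. The median of the 4 members was -0.31, beside a median of 0.19 over all genes tested. That median of all genes moved to -0.01 with median-ratio rescaling, and the members then stood at -0.48 for TotA, -0.60 for TotC, -1.33 for TotM and 0.14 for TotX, none of them called.

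A single library set the sign for TotA and TotC. Without HSD library 2 the fat body differences turned to 0.13 for TotA and 0.074 for TotC. Without libraries ND 4, ND 5 and HSD 4, the ones with few low-count genes, they turned to 0.11 and 0.012, and that of TotX moved to 0.96. The TotX difference was 1.00 in libraries 1 to 3 alone and -0.60 in libraries 4 and 5 alone, so its direction did not hold across them. TotM moved between -1.42 without HSD library 3 and -0.82 without HSD library 2. The fat body marker sum had a median of 47748 RPKM on HSD and 118900 RPKM on ND, of which Yp1, Yp2 and Yp3, which encode yolk proteins, made up 92.9% to 96.7% on HSD and 94.4% to 98.2% on ND. Of 10 markers of that list tested, 2 were higher on HSD, and the median log2 difference was -0.73. In limma 7 of the 10 had an unadjusted p under 0.05, and none was called. Beside the yolk genes, Lsp2, fit, Rfabg and bmm had lower means on HSD, at 5.64, 69.6, 1152 and 80.1 RPKM. On ND they had 161, 279, 1608 and 114 RPKM. The 2 higher genes were the receptor gene GRHR, at 0.67 ± 0.23, and the insulin-like peptide gene Ilp6, at 0.62 ± 0.33 (SE). The fatty acid synthase gene CG3523 had -0.20 ± 0.14 (SE). The oenocyte and ovary markers given above also differed in range between the diets. Set against the fat body marker sum, TotM stood at 1.17 to 7.07 RPKM per 1000 RPKM of markers on HSD and 1.35 to 3.91 on ND, with overlap. Against the markers without the yolk genes, a setting chosen after seeing the data, TotM stood at 28.6 to 138.7 RPKM per 1000 RPKM on HSD and 70.0 to 93.6 on ND, and 4 of 5 HSD fat bodies lay below the lowest ND fat body. The part of tissue make-up in the TotM difference was not tested, and in such bulk samples fewer fat body cells and less RNA per cell cannot be told apart.

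**Figure D3:**
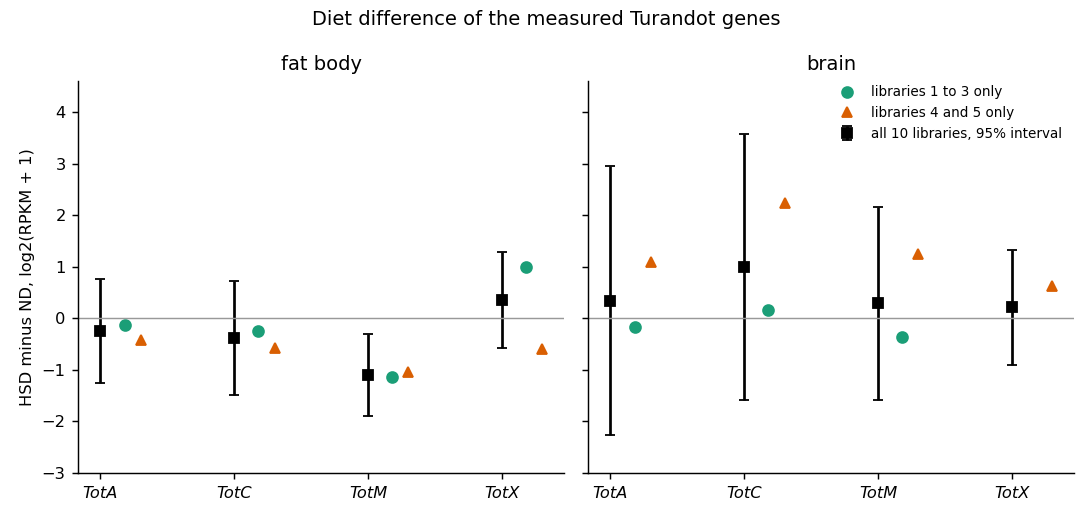
HSD minus ND difference on the log2(RPKM + 1) scale in fat body (left) and brain (right); squares with bars are the limma estimate and its 95% interval from 10 libraries, circles are libraries 1 to 3 and triangles libraries 4 and 5. TotX is not shown for brain libraries 1 to 3, where its mean lies under 1 RPKM. In the fat body only the TotM interval lies below 0, and in the brain all 4 intervals span 0.

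The members did not keep a fixed ratio in the fat body. TotC followed TotA, with 0.281 to 0.498 of its RPKM on HSD and 0.32 to 0.481 on ND. TotM amounted to 0.143 to 0.539 of TotA on HSD and 0.304 to 1.01 of it on ND, and the 3 highest ratios (0.663, 0.823 and 1.01) were those of ND libraries 1 to 3. TotX amounted to 0.0644 to 0.186 of TotA on HSD and 0.061 to 0.103 on ND, with the 2 highest ratios in HSD libraries 1 and 2. In terms of the summed family RPKM, TotM made up 9.32% to 25.4% on HSD and 17.5% to 39.6% on ND. Across the 10 fat body libraries, which share depth and scaling, Pearson's r of log2(RPKM + 1) was 0.96 for TotA with TotC and -0.01 for TotM with TotX, given as a description.

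**Figure D4:**
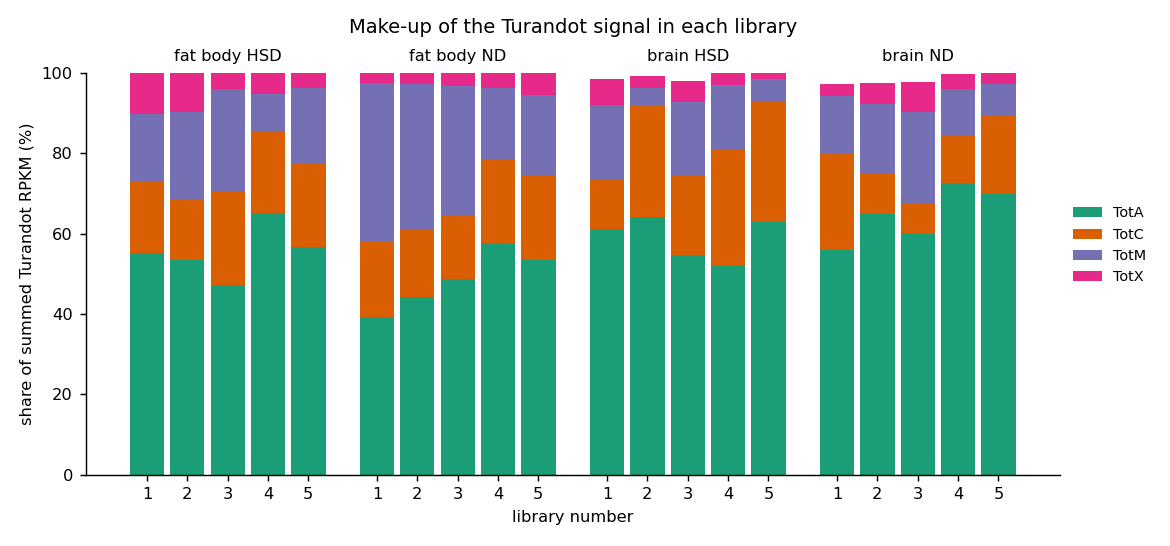
Share of the summed Turandot RPKM (%) taken by TotA, TotC, TotM and TotX in each of the 20 libraries, grouped by tissue and diet. TotM has its largest share, 39.6%, in fat body ND library 1, and TotA is the largest component in all libraries but that one.

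Other genes were ranked by their likeness to each member in the fat body, as a description only. Over the 10 libraries and 6608 genes with a mean of at least 5 RPKM, the genes most like TotA were TotC and IM14, an immune-induced peptide gene (r of 0.96 and 0.92), followed by CG31380, CG18624 and CG30002 (0.87, 0.87 and 0.86). For TotC they were TotA, IM14, CG30002, CG13484 and CG31380, with r between 0.82 and 0.96. IM14 had 155 to 662 RPKM on HSD and 230 to 776 RPKM on ND, a range like that of TotA. For TotM they were the glycolysis genes Gapdh2 (0.83) and Eno (0.79), the cytochrome P450 gene Cyp309a2 (0.82), TepII (0.76), which encodes a complement-like thioester protein, and CG31313 (0.75). For TotX they were CG4662, CG12001, CG41128, CG8112 and CG30022, with r between 0.93 and 0.95. After median-ratio rescaling, 3 of 5 of these genes were shared for TotA, 3 for TotC, 2 for TotM and 1 for TotX.

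In the brain the Turandot genes split the libraries by number and not by diet. TotA had 3.04, 4.38, 3.86, 92.1 and 93.0 RPKM in brain HSD libraries 1 to 5, against 5.59, 3.31, 4.23, 21.9 and 82.3 RPKM in brain ND libraries 1 to 5. TotC had 0.599, 1.91, 1.40, 50.9 and 44.5 RPKM on HSD, against 2.39, 0.524, 0.522, 3.505 and 22.7 RPKM on ND. For both genes all 4 libraries numbered 4 or 5 lay above all 6 libraries numbered 1 to 3, on either diet. TotM had 0.931, 0.2815, 1.28, 28.8 and 8.04 RPKM on HSD, against 1.41, 0.872, 1.62, 3.55 and 9.40 RPKM on ND. TotX had 0.321, 0.207, 0.367, 5.18 and 2.37 RPKM on HSD, against 0.305, 0.267, 0.512, 1.15 and 3.09 RPKM on ND. The same division held for these 2 genes, and within the libraries 1 to 3 the values rested on few reads (5 to 32 for TotM and 4 to 11 for TotX).

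The mean over libraries 4 and 5 was 17.8 times that over libraries 1 to 3 for TotA, 24.8 times for TotC, 11.7 times for TotM and 8.93 times for TotX. By size of this difference on the log2(RPKM + 1) scale they stood at positions 10, 22, 71 and 202 of 8910 genes. In all, 12.6% of the genes had libraries 4 and 5 of both diets above libraries 1 to 3, and 6.35% had them below. TotX passed the filter of a mean of 1 RPKM through libraries 4 and 5 only, so its place in that count was set by the filter. The SD of log2(RPKM + 1) within diets was 2.10 for TotA and 2.08 for TotC in the brain, where the median gene had 0.14, which places them at positions 20 and 24 of 8910 genes. In the fat body it was 0.88 for TotA, 0.96 for TotC, 0.68 for TotM and 0.79 for TotX, where the median gene had 0.46 (positions 1019, 803, 1960 and 1360 of 8223 genes).

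Markers of fat body, like the Turandot genes, were higher in brain libraries 4 and 5 than in brain libraries 1 to 3. Within libraries 4 and 5 the marker sum and the Turandot sum did not follow the same order. The 13 fat body markers summed to 599, 503, 436, 3757 and 1835 RPKM in brain HSD libraries 1 to 5 and to 465, 716, 570, 3777 and 10359 RPKM in brain ND libraries 1 to 5. All 10 of these markers that passed the filter, among them the yolk protein genes Yp1 to Yp3, the lipoprotein gene Rfabg and the female-enriched fat body gene fit, had libraries 4 and 5 above libraries 1 to 3. The most abundant, Yp1, had 896 to 4017 RPKM in libraries 4 and 5 and 118 to 259 RPKM in libraries 1 to 3. GRHR, with medians of 0.809 RPKM in HSD brains and 0.644 RPKM in ND brains, passed the filter through libraries 4 and 5 only. Its place among the 10 was therefore set by the filter. Fbp2 was at 0 in all 5 ND brain libraries. Summed Turandot RPKM was 4.96, 6.84, 7.05, 177 and 148 in brain HSD libraries 1 to 5 and 9.98, 5.10, 7.06, 30.1 and 118 in brain ND libraries 1 to 5. Per 100 RPKM of fat body markers that was 0.712 to 2.15 in brain libraries 1 to 3, and 4.71 and 8.06 in HSD libraries 4 and 5 but 0.798 and 1.14 in ND libraries 4 and 5. The fat body libraries themselves held 0.531 to 2.78 on HSD and 0.34 to 2.23 on ND. This ratio depends on the yolk genes, which dominate the sum. Without them it was 53.7 and 61.4 in brain HSD libraries 4 and 5 and 6.87 and 11.8 in brain ND libraries 4 and 5, against 12.99 to 54.6 in fat body HSD and 18.5 to 40.5 in fat body ND. Per 100 RPKM of Rfabg alone it was 114 and 135 in brain HSD libraries 4 and 5 and 20.8 and 66.95 in brain ND libraries 4 and 5, against 31.8 to 139 in fat body HSD and 46.3 to 71.7 in fat body ND. With all 3 denominators brain HSD libraries 4 and 5 stood above brain ND libraries 4 and 5, while their place relative to the fat body libraries changed. The part of fat body RNA in the brain values was not tested.

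**Figure D5:**
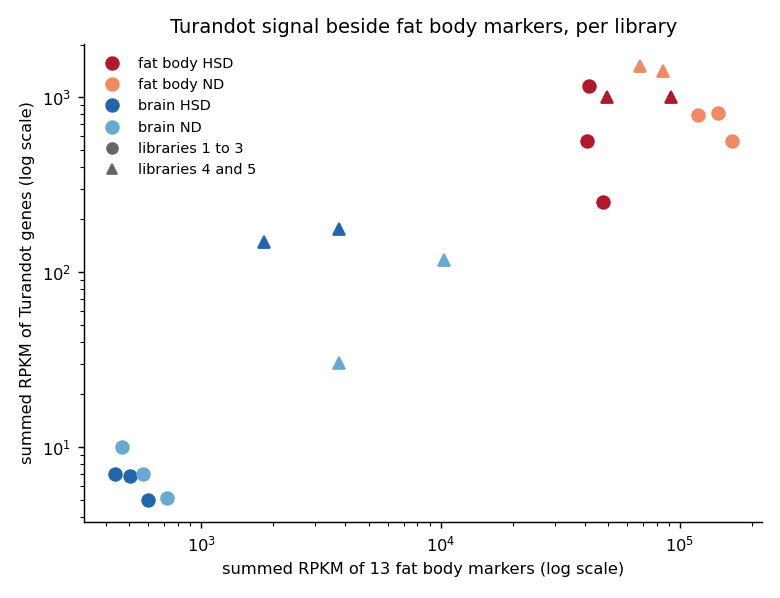
Each symbol is 1 library, with the summed RPKM of 13 fat body markers across and the summed Turandot RPKM up, both on log axes; circles are libraries 1 to 3 and triangles libraries 4 and 5. Brain libraries 1 to 3 lie at 436 to 716 RPKM of markers and 4.96 to 9.98 RPKM of Turandot genes, and brain libraries 4 and 5 lie between them and the fat body libraries.

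Other cell types and stress genes differed between the same brain libraries. Hemocyte markers, of the blood cells that release Unpaired cytokines, summed to 182 to 325 RPKM in libraries 4 and 5 and 139 to 153 RPKM in libraries 1 to 3. Of 6 hemocyte markers tested 5 were above in libraries 4 and 5, and Pxn was below, with 47.5 to 50.3 RPKM in libraries 4 and 5 and 51.0 to 52.7 RPKM in libraries 1 to 3. Brain HSD library 4, the highest for TotM and for summed Turandot RPKM, also had eye markers at 1433 RPKM, against 68.9 to 128 RPKM in the other brain libraries, and midgut markers at 343 RPKM, against 0.383 to 11.6 RPKM. Brain ND library 4 had oenocyte markers at 145 RPKM, against at most 0.582 RPKM in the other brain libraries. Glia markers summed to 1888 to 2233 RPKM in libraries 4 and 5 and 1668 to 1888 RPKM in libraries 1 to 3. The part of these cell types in the Turandot values was not tested. All 4 muscle markers tested were above, and neuron markers summed to 2757 to 3454 RPKM in libraries 4 and 5 and 3567 to 3809 RPKM in libraries 1 to 3. Among genes known to respond to Stat92E or stress outside the family, TepII, the virus-induced gene vir-1 and the antiviral peptide gene Vago had all of libraries 4 and 5 above libraries 1 to 3, 3 of 6 tested. Of the heat shock and handling stress list 4 of 12 did so (Hsp26, Hsp68, Hsp83 and the translation inhibitor Thor), and of the Imd and NF-kB list 6 of 18, PGRP-LC and Rel among them, while the receptor gene Tl was below. None of 8 tested genes of the JAK-STAT core and none of 14 antimicrobial peptide genes did, nor any of 15 stress MAPK genes, of which wnd and Mkk4 were below. Over all genes 12.6% were above and 6.35% below. The genes most like TotX in the brain, over 10 libraries, were TotM, Reg-5, CG42489, Thor and CG4716. For TotM the likest were Reg-5, CG13124, CG7149, Scp2 and CG42489. For TotA they were wun2, CG4716, CG17108, CG13124 and TotC, and for TotC they were nes, TotA, wun2, CG18428 and the insulin-responsive transcription factor foxo. They were ranked by Pearson's r, which is not printed because the brain libraries fall into 2 separate sets, and 2 to 4 of the 5 genes per member were shared after rescaling.

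The diet difference in the brain was small beside that division. TotA averaged 39.3 ± 48.6 RPKM on HSD and 23.5 ± 33.8 RPKM on ND, and TotC 19.9 ± 25.5 RPKM on HSD and 5.93 ± 9.47 RPKM on ND (SD, n = 5). TotM averaged 7.87 ± 12.1 RPKM on HSD and 3.37 ± 3.52 RPKM on ND, and TotX 1.69 ± 2.15 RPKM on HSD and 1.06 ± 1.19 RPKM on ND (SD, n = 5). In limma over 8910 genes, 0% were called higher and 0% lower on HSD after Benjamini-Hochberg adjustment, with 79 genes at an unadjusted p under 0.05 and 0 called by limma-voom (91 unadjusted). The log2 differences were 0.34 ± 1.18 for TotA, 0.99 ± 1.16 for TotC, 0.29 ± 0.84 for TotM and 0.21 ± 0.50 for TotX (SE), each with an adjusted p of 1.00 in limma. The intervals were wide, for TotC from -1.59 to 3.58, so even a change of more than 2-fold in either direction lies within it. Within libraries 1 to 3 TotA stood at -0.16, TotC at 0.17 and TotM at -0.36, and within libraries 4 and 5 at 1.10, 2.23 and 1.26. TotA turned to -0.30 without HSD library 4, -0.31 without HSD library 5 and -0.038 without ND library 2, and TotM turned to -0.41 without HSD library 4. TotC moved to 0.30 without HSD library 4 and to 1.65 without ND library 5.

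Whether the diet acted differently in the 2 tissues was tested as an interaction over all 20 libraries. None of the 4 members passed, and in limma 0% of 9280 genes were called higher and 0% lower (598 at an unadjusted p under 0.05, and 0 called by limma-voom). The diet difference in the fat body minus that in the brain was -0.59 ± 1.33 for TotA, -1.37 ± 1.34 for TotC, -1.39 ± 0.97 for TotM and 0.15 ± 0.70 for TotX (SE, log2 scale). Their Benjamini-Hochberg adjusted p values in limma were 1.00, 0.923, 0.846 and 1.00. The interval for TotM, -3.41 to 0.63, covers no difference and a large one alike.

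Tissue set the family's levels far more than diet did in size. On normal food all 4 tested members were higher in the fat body in limma, where 23.2% of 9219 genes were called higher and 51.6% lower. The log2 differences of fat body over brain on ND were 5.22 ± 0.77 for TotA, 5.51 ± 0.69 for TotC, 6.22 ± 0.39 for TotM and 4.17 ± 0.49 for TotX (SE), with adjusted p values in limma of 7.88e-05, 2.18e-05, 5.39e-08 and 1.13e-05. All 5 ND fat bodies lay above all 5 ND brains for each of the 4, as for 19.3% of the genes tested. TotM was the member with the greatest difference on ND and stood at position 229 of 9219 genes by size. TotX passed the filter of this comparison only with its fat body values, and TotB, TotF and TotZ lay under it, so 4 of the 7 members were tested.

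On high sugar the same 4 members were higher in the fat body, where limma called 27.2% of 9315 genes higher and 47.3% lower. The log2 differences of fat body over brain on HSD were 4.63 ± 0.99 for TotA, 4.14 ± 1.06 for TotC, 4.83 ± 0.83 for TotM and 4.32 ± 0.46 for TotX (SE), with adjusted p values in limma of 0.00146, 0.00439, 0.000283 and 5.84e-06. TotX, with a brain HSD mean of 1.69 RPKM, passed the filter of this comparison only with its fat body values. For TotA, TotM and TotX all 5 HSD fat bodies lay above all 5 HSD brains, a separation seen in 22.5% of genes tested. For TotC they overlapped, since fat body HSD library 2 (37.96 RPKM) lay below brain HSD libraries 4 and 5 (50.9 and 44.5 RPKM). Within libraries 1 to 3, whose brains had the lowest fat body marker sums, the 4 members were called on both diets, with log2 differences of 5.91 on HSD and 5.89 on ND for TotA. Of the 13 fat body markers 10 were tested, and 9 of them were called higher in the fat body on each diet. The exception was the larval serum protein gene Lsp2, with means of 5.64 RPKM in fat body and 4.67 RPKM in brain on HSD, and 161 RPKM in fat body and 117 RPKM in brain on ND. Lsp1gamma, Fbp1 and Fbp2 were near 0 in both tissues.

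The known inputs of the family differed among themselves between the tissues. Genes for the cytokine receptor dome and the kinase hop had 14.5 ± 5.08 and 10.6 ± 3.61 RPKM in fat body HSD, 14.1 ± 5.94 and 9.95 ± 5.47 RPKM in fat body ND, 15.5 ± 0.43 and 14.6 ± 0.67 RPKM in brain HSD and 15.3 ± 0.85 and 14.4 ± 0.99 RPKM in brain ND (SD, n = 5). Stat92E, their transcription factor, was higher in the fat body, with 105 ± 22 RPKM on HSD and 123 ± 11.8 RPKM on ND, against 61.0 ± 0.81 and 61.2 ± 1.77 RPKM in the brain on HSD and ND (log2 difference 0.75 ± 0.13 on HSD and 0.99 ± 0.10 on ND; adjusted p in limma 0.000378 and 3.24e-06). Socs36E, a feedback inhibitor that Stat92E switches on, was lower in the fat body, with 3.50 ± 2.46 RPKM on HSD and 2.72 ± 1.25 RPKM on ND, against 24.3 ± 1.08 and 24.0 ± 2.13 RPKM in the brain (log2 difference -2.76 ± 0.45 on HSD and -2.82 ± 0.23 on ND; adjusted p in limma 0.000194 and 4.39e-07). The cytokine gene upd3 had at most 0.516 RPKM in fat body HSD, 0.3 in fat body ND, 0.104 in brain HSD and 0.207 in brain ND. Of the Imd pathway, Rel had 60.2 ± 12.7 RPKM in fat body HSD, 53.1 ± 13.1 in fat body ND, 15.6 ± 2.97 in brain HSD and 17.7 ± 5.89 in brain ND, and PGRP-LC, a receptor for bacterial peptidoglycan, had 16.0 ± 5.02, 17.8 ± 3.39, 3.04 ± 1.01 and 3.66 ± 1.43 RPKM in the same groups. Mekk1 had 18.8 ± 3.82, 16.6 ± 2.35, 12.6 ± 0.65 and 12.03 ± 0.53 RPKM in them. Rel, PGRP-LC and Mekk1 were called higher in the fat body on both diets.

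Over all genes 27.2% were called higher and 47.3% lower in the fat body on HSD, and 23.2% higher and 51.6% lower on ND, and several of the list counts lie near these shares. By list, 1 of 8 tested JAK-STAT core genes was called higher in the fat body on each diet, and 5 were called lower on HSD and 4 on ND. Of 8 tested genes known to respond to Stat92E or stress outside the family, 7 were called higher on HSD and 7 on ND, and 1 was called lower on HSD. Of these, CG11501 and Listericin passed the filter only with their fat body values, so their place in that count was set by the filter. Their brain means were 0.917 and 0.224 RPKM on HSD and 0.625 and 0.576 RPKM on ND. Vago had 440 RPKM in fat body HSD, 340.4 in fat body ND, 5.84 in brain HSD and 10.04 in brain ND, and vir-1 had 822, 682, 167 and 174 RPKM in these groups. Of 18 Imd and NF-kB genes, 12 were called higher and 3 lower on HSD, and 9 higher and 4 lower on ND. Of 16 stress MAPK genes, 4 were called higher and 9 lower on HSD, and 3 higher and 10 lower on ND. In that list p38c, with brain means of 0.152 RPKM on HSD and 0.175 RPKM on ND, passed the filter only with its fat body values. Heat shock and handling stress genes divided into 4 higher and 5 lower of 12 on either diet. Among them Hsp67Bc, with fat body means of 0.0124 RPKM on HSD and 0.0103 RPKM on ND, passed the filter only with its brain values. Antimicrobial peptide genes had 6 of 14 higher on HSD and 3 of 14 on ND, and none lower.

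Between the diets, none of these lists had a called gene in either tissue. In the fat body the median log2 difference was 0.13 for the JAK-STAT core, -0.32 for the responsive genes outside the family, 0.13 for stress MAPK, 0.13 for Imd and NF-kB, -0.06 for heat shock and handling stress and 0.03 for antimicrobial peptides, beside 0.19 over all genes. In the brain these medians were 0.02, -0.14, 0.01, -0.05, -0.05 and -0.95, beside 0.02 over all genes. Stat92E differed between diets in the fat body by -0.25 ± 0.15 (SE; adjusted p in limma 0.625), Mekk1 by 0.16 ± 0.19 and Rel by 0.19 ± 0.20, and Socs36E by 0.07 ± 0.50. Antimicrobial peptide genes summed to 778 to 8854 RPKM in HSD fat bodies and 200.3 to 15338 RPKM in ND fat bodies, a wider spread than the 253 to 1160 RPKM and 559 to 1514 RPKM of the Turandot genes.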

How the data were processed

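RNA sequencing of fat body and brain was taken as deposited, 1 table per library. The labels give poly(A) selection and the use of uniquely mapping reads. The submitters' processing notes name TopHat and dm3, while the counting tool, annotation and strand setting are not given in the sources used here. What the authors deposited is 1 RPKM value for each gene, as the labels state. Of 15080 rows, 1107 that shared 188 symbols and 1 named differently between tables were left out, leaving 13972 genes. No pair of tables was identical (0 found). Reads were recovered by finding a total per library and an exon length per gene that make the RPKM whole, and 99.98% of nonzero values then lay within 0.01 of a whole read. Exon lengths were chosen to give whole reads, so that share alone is not an independent check of the recovered reads.

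The tests used limma 3.58.1 (R 4.3.3, trended variance) with log2(RPKM + 1) as input, restricted to genes averaging 1 RPKM or more in the compared libraries, two-sided, with Benjamini-Hochberg adjustment over all genes tested and a threshold of 0.05. The fits were also run on simulated data with independent noise per gene and without the division of the brain libraries. The changes put in were larger than the members' diet differences over all libraries. That run therefore does not show how well differences of that size are found. Levels of TotB, TotF and TotZ lay under the filter and were not tested. The members, gene lists and alternatives were chosen with earlier results of these data known. All members are named whatever their values, pathway genes by smallest adjusted p or as fixed inputs, of which only some are given, and like genes by the 5 highest r per member. Same-numbered HSD and ND libraries deviated together from their group means (correlations 0.126 to 0.649 in fat body and 0.3 to 0.655 in brain, each above 0.1). Equal numbers were taken to pair them only where a replicate block was fitted. Libraries with different numbers were not correlated, and the division of the brain libraries alone makes same-numbered brain libraries alike. The correlations therefore cannot show that equal numbers are pairs. The labels give no source for that pairing. Between tissues the correlations were -0.227 to 0.152 and libraries were not taken as pairs. Alternatives covered the pseudocount, filter, scaling, limma-voom and left-out libraries.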

Additional observations from a re-analysis of the deposited data

Results flagged for a closer look

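In 7 of the 36 sets of 5 libraries examined, 1 library stood apart from the other 4 by a gap above 0.71 of the range. The nominal 5% rate of this rule assumes independent normal values, so the count is not set against it for these skewed RPKM values. A lone read among zeros is always flagged, and a set with 0 in all 5 libraries never is. Brain ND library 5 was the highest for TotA (82.3 RPKM), TotC (22.7 RPKM) and summed Turandot RPKM (118), and brain HSD library 4 was the highest for TotM (28.8 RPKM). In these sets the other libraries include the second member of libraries 4 and 5, and TotA in brain ND library 4 was 21.9 RPKM. TotB in brain HSD library 2 (0.059 RPKM) and TotZ in brain ND library 3 (0.0431 RPKM) each stood apart by 1 read. The fat body marker sum of fat body HSD library 5 was 91464 RPKM, against 40806 to 49706 RPKM in the other 4 HSD fat bodies, while its Turandot sum of 1002 RPKM lay within their range.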

How the results depend on the processing

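The number of members called was 0 for diet in the fat body, for diet in the brain and for the interaction, and 4 for each tissue comparison, under all alternatives run, and the replicate block changed no call (0 members called for diet in either tissue and for the interaction, 4 in the tissue comparisons). The tissue counts include members that passed the filter only with their fat body values. Only directions of uncalled differences turned. In the fat body TotX turned to -0.60 in libraries 4 and 5, and TotA and TotC turned to 0.11 and 0.012 without libraries ND 4, ND 5 and HSD 4. In the brain TotA and TotM turned to -0.16 and -0.36 in libraries 1 to 3. In the interaction TotX turned to -0.053 with median-ratio rescaling and -0.11 with quantile normalization, and TotA turned to 0.027 in libraries 1 to 3. With each library left out in turn, the fat body difference ranged from -0.51 to 0.13 for TotA and -0.63 to 0.074 for TotC, the brain difference from -0.31 to 1.03 for TotA and -0.41 to 0.73 for TotM, and the interaction from -1.28 to 0.059 for TotA and -0.15 to 0.53 for TotX. The cause of these turns was not tested. Rescaling over all 20 libraries moved the mean of TotM in fat body ND to 327 RPKM. TotB, TotF and TotZ had at most 6 reads in a group, so differences in them were not detectable at this depth, and TotX had as few as 4 reads in a brain library. With the yolk genes left out of the fat body markers, the median of TotM per 1000 RPKM of markers was 44.8 on HSD and 79.9 on ND, against 2.08 on HSD and 2.15 on ND with them.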
